A study of Mus musculus with 11 samples.

Results

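The 9 genes described here carry the cytosolic synthesis of fatty acids in mouse liver or its control: Acly, Me1, Acaca, Fasn, Thrsp, Elovl6, Elovl5, Scd1 and Srebf1. They were taken by symbol, with every probe that carries the symbol, from an array that names 27962 genes by 41174 probes. The 9 genes have 16 probes, and Me1 stands on the array under its older symbol Mod1. After a filter on dim probes 16695 genes were tested, and all 9 members were among them.

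Liver RNA of 4 stages of development was measured on 11 arrays, with 3 arrays each for embryonic day 14 (E14), embryonic day 18 (E18) and postnatal day 56 (P56) and 2 for postnatal day 5 (P5). Each array carried amplified liver RNA in the Cy5 channel and, as a reference common to all arrays, a purchased adult liver RNA (normal mice) in the Cy3 channel. The labels give no transgene, drug or diet for any stage, and they do not give the strain, sex, feeding state or hour of collection, so a difference in any of these between stages cannot be told apart from the stage. The labels name the samples as liver, but also give a cell type (hepatoblasts at E14, immature hepatocytes at E18, hepatocytes at P5 and P56), and the protocol mentions both whole livers and isolated embryonic cells. Red cell precursor genes were high in both embryonic stages and at P5: the mean log2(Cy5/Cy3) over 11 erythroid markers lay between 3.13 and 3.37 on the embryonic arrays, was 2.41 and 2.98 on the P5 arrays, and lay between -0.18 and 0.03 at P56. The mean over 9 hepatocyte markers was -3.08 at E14, 0.37 at E18, -0.12 at P5 and -0.79 at P56. In RNA of several cell types, fewer cells of a type and less RNA per cell cannot be told apart. The P5 and P56 arrays varied more than the embryonic ones, with correlations between replicates over all tested genes of 0.981 to 0.984 at E14, 0.954 to 0.972 at E18, 0.885 at P5 and 0.810 to 0.920 at P56. Of the spots, 16790 to 25718 per array were well above background in Cy5, fewest on P56 replicate 2.

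Fatty acids are built from acetyl-CoA. ATP citrate lyase releases acetyl-CoA from citrate, acetyl-CoA carboxylase turns it into malonyl-CoA, and fatty acid synthase joins these units into palmitate with NADPH, part of which malic enzyme supplies. Elongases and desaturases then lengthen the chain and place double bonds, and SREBP-1, ChREBP, the liver X receptors and thyroid hormone receptors control the genes, which are known to follow insulin, dietary carbohydrate and feeding in adult liver. Milk is a high-fat diet, and suckling rodents are known to make little fatty acid in the liver until weaning.

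Sequences come first, because the probes decide which transcripts the values describe and the promoters are where the shared regulators are known to bind. The single Thrsp probe and the 4 Acaca probes are printed here as given with the array, 5′ to 3′, because Thrsp gave the largest change of the set and because the Acaca probes did not give the same answer.
Thrsp, chr7:93448487-93448546 (mm7, minus strand): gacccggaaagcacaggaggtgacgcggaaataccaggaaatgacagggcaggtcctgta
Acaca, the brightest probe, chr11:84470765-84470824 (mm7, plus strand): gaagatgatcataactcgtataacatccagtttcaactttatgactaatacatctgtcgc
Acaca, chr11:84363852-84364855: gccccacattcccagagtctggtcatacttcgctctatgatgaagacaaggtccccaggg
Acaca, chr11:84350405-84362820: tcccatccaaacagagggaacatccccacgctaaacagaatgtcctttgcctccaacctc
Acaca, chr11:84411918-84415918: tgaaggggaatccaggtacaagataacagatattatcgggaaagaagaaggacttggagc
The last 3 Acaca probes match the reference transcript of the gene and span 1004, 12416 and 4001 bases of the genome with 60 bases of sequence, so each crosses at least one exon junction. The brightest probe lies in 1 block of 60 bases and was designed on a complementary DNA that the array's annotation describes as having a retained intron.

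RefSeq promoter windows (GRCm38.p6, 250 bases before to 50 after the start) were at hand for 8 of the 9 genes, in 11 windows, since Me1 and Srebf1 have several starts. The CCAAT box, the site of the NF-Y factor that works beside SREBP at lipogenic promoters, was searched as CCAAT on both strands. It was present in 7 of the 11 windows (63.6%), those of Acly, Elovl5, Fasn, Me1, Srebf1 and Thrsp, and in 37.4% of all 32851 windows. The 120 bases before the start of Fasn and of Thrsp are shown because each holds several matches close together, with the matches in capitals.
Fasn, chr11:120824548-120824667 (minus strand): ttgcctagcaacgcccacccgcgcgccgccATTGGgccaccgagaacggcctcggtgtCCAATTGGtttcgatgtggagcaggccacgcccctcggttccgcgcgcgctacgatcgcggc
Thrsp, chr7:97417551-97417670 (minus strand): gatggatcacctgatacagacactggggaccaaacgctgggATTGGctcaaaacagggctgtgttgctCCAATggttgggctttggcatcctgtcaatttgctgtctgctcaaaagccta
The Fasn matches begin at -90, -62 and -59, the last 2 overlapping on opposite strands, and those of Thrsp at -79 and -52. The E-box CACGTG, a site of USF factors, occurred in 1 member window (Elovl5) and in 7.15% of all windows. The GC box GGGCGG occurred in 4 member windows and in 35.7% of all. The sterol element TCACNCCAC, known for SREBP, was in none of the 11 member windows and in 1.24% of all. These matches describe the letters of the windows only.

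Expression is given throughout as log2(Cy5/Cy3), the level in the sample relative to the adult reference on the same array: 0 is the level of the reference, and 1 is a doubling. The brightest probe that passed the filter stands for a gene, and on all 11 arrays the probe standing for each member was well above background in Cy5 and not saturated. A change between stages is a log2 fold change from limma fitted to all 11 arrays, with its standard error (SE), and a gene was called changed at an adjusted p under 0.05 over all tested genes. Levels of different probes are set against each other only where members at P56 are ranked among all tested genes.

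By the probe standing for each gene, all 9 genes rose before birth and again after P5, and 5 of them fell in between. For Acaca the rise before birth was seen with its brightest probe only. Its other probes that passed the filter changed by 0.00061 and -0.02 from E14 to E18. From P5 to P56 these probes changed by 0.19 (SE 0.11) and 0.16 (SE 0.099), against 0.96 by the brightest, so that rise too rests mainly on the brightest probe. Between E14 and E18 all 9 rose, with a median log2 fold change of 1.35, against 24.6% of all tested genes called higher, 22.8% called lower and a median of -0.01. Between E18 and P5 none rose and 5 fell (Fasn, Elovl6, Acly, Scd1 and Srebf1), with a median of -1.60, against 6.4% of all genes called lower, 7.32% called higher and a median of 0.00035. Between P5 and P56 all 9 rose, with a median of 3.56, against 20.9% of all genes called higher, 24.7% called lower and a median of -0.02. From E14 to P56 all 9 rose, with a median of 3.24 (36.1% of all genes called higher and 34.8% lower). From E18 to P56, 7 rose and Srebf1 fell, while Acly did not pass the test (31.2% of all genes called higher and 33.6% lower). These comparisons share arrays, so the level of one stage enters the step before it and the step after it. By the methods' t-test, gene by gene, 1 of the 9 (Fasn) passed the adjusted threshold from E18 to P5 and 1 (Thrsp) from P5 to P56. When arrays were centred on their medians and not by loess, 6.84% of all calls from P5 to P56 were higher in place of 45.7%, and 7 of the 9 members passed, all but Acaca and Srebf1. Under that scaling Acaca (-0.09) and Acly (-0.50) were lower at P56 than at E18, without passing the test.

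**Figure D1:**
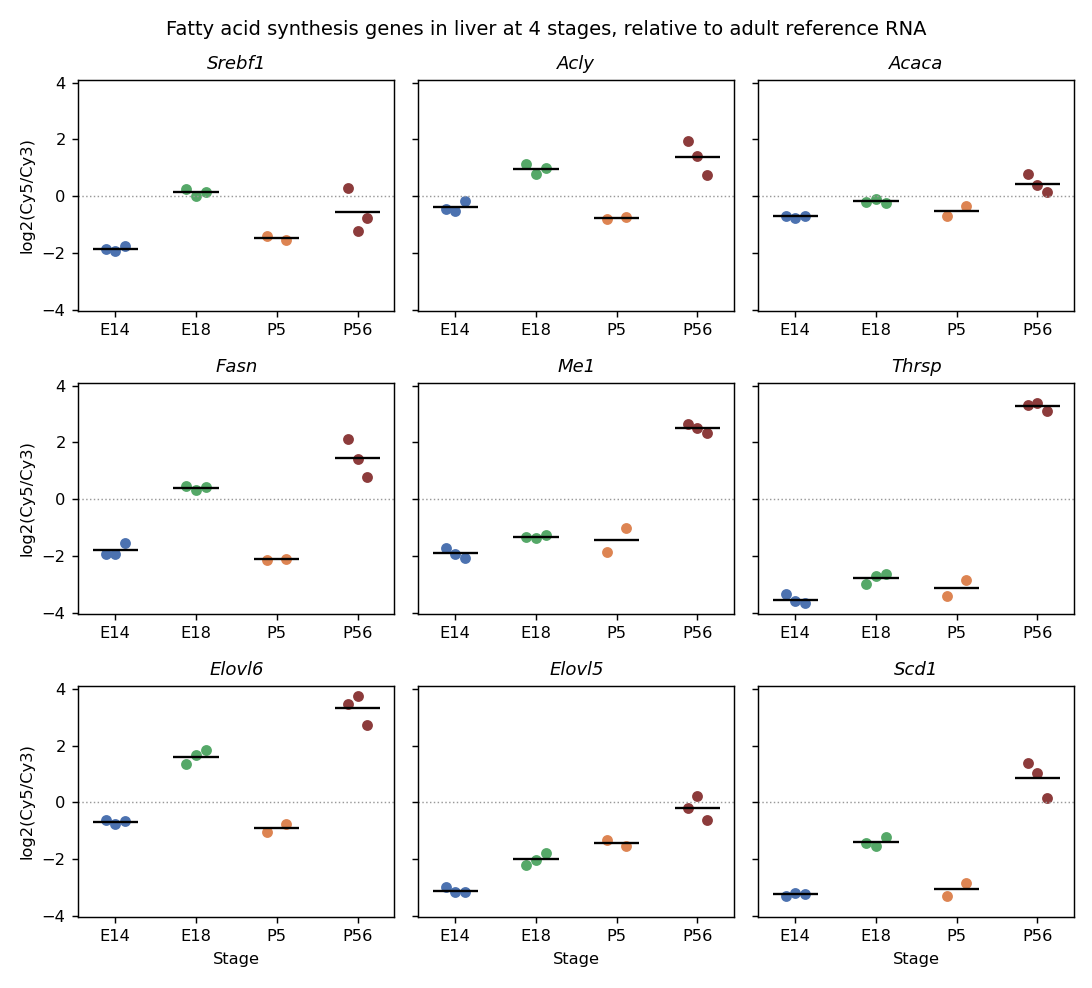
Level of each of the 9 genes on each array as log2(Cy5/Cy3) (vertical axis) at the 4 stages (horizontal axis). Points are arrays (3, 3, 2 and 3), bars are stage means and the dotted line is the adult reference. Fasn, Acly, Elovl6 and Scd1 trace a peak at E18, a low at P5 and their highest mean at P56, while Thrsp and Me1 are far below the reference until P5 and above it at P56.

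The enzymes that supply the building blocks come first. Acly, the ATP citrate lyase, read -0.46, -0.52 and -0.16 on the E14 arrays, 1.13, 0.79 and 1.00 at E18, -0.78 and -0.71 at P5, and 1.94, 1.43 and 0.76 at P56. All E18 values lay above the E14 and P5 values, the P5 arrays lay below all others, and the E18 and P56 ranges overlapped. Acly rose by 1.35 (SE 0.23, adjusted p = 0.00048) from E14 to E18, fell by 1.72 (SE 0.26, adjusted p = 0.0013) by P5 and rose by 2.13 (SE 0.26, adjusted p = 4.7e-05) by P56. The difference between P56 and E18, 0.40 (95% interval -0.10 to 0.91, adjusted p = 0.15), did not pass the test, though without P56 replicate 3 it was 0.71 (adjusted p = 0.0046). A second Acly probe, designed on another complementary DNA, was well above background on 0 of 11 arrays and gives no level.

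Me1, the cytosolic malic enzyme, read -1.72, -1.91 and -2.07 at E14, -1.33, -1.37 and -1.27 at E18, -1.84 and -1.01 at P5, and 2.63, 2.52 and 2.34 at P56. Values up to P5 stayed within about the same low range, with the P5 arrays on either side of the E18 arrays, and P56 lay far above. Me1 rose by 3.92 (SE 0.20, adjusted p = 5.0e-08), or 15.1-fold, from P5 to P56. The rise from E14 to E18 was small, 0.58 (SE 0.18, adjusted p = 0.019), and it no longer passed without E14 replicate 2 (adjusted p = 0.053), E14 replicate 3 (adjusted p = 0.075) or E18 replicate 3 (adjusted p = 0.061). From E18 to P5 the change was -0.10 (95% interval -0.54 to 0.34, adjusted p = 0.78), and 0.32 without P5 replicate 2. The second Me1 probe gave changes of 0.55, -0.09 and 4.61 over the 3 steps.

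Acaca, the acetyl-CoA carboxylase of the cytosol, read -0.68, -0.76 and -0.68 at E14, -0.19, -0.09 and -0.25 at E18, -0.71 and -0.33 at P5, and 0.79, 0.41 and 0.15 at P56 by its brightest probe. It rose by 0.53 (SE 0.15, adjusted p = 0.012) from E14 to E18 and by 0.96 (SE 0.17, adjusted p = 0.00064) from P5 to P56. Both P5 arrays lay below the E18 arrays, as for 21.5% of all genes, but the difference, -0.34 (95% interval -0.71 to 0.02, adjusted p = 0.20), did not pass. The other probes printed above were dimmer and nearly flat. The 2 of them that passed the filter changed by 0.00061 and -0.02 from E14 to E18 and by 0.19 and 0.16 from P5 to P56, and the last was well above background on 3 of 11 arrays. With the mean of all Acaca probes in place of the brightest one, the first rise was 0.17 (adjusted p = 0.17). The raw Cy5 intensities of the brightest probe ran from 68.1 to 197.8 and those of the other 3 from 42.6 to 71.4. The size of the Acaca changes, and whether Acaca rose beyond its error in either step, thus depend on the probe and rest on dim spots.

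Fasn, the fatty acid synthase, read -1.92, -1.92 and -1.53 at E14, 0.46, 0.32 and 0.42 at E18, -2.13 and -2.08 at P5, and 2.12, 1.44 and 0.80 at P56. No 2 stages overlapped, and P5 was lowest. The rise to E18 was 2.19 (SE 0.25, adjusted p = 2.3e-05), or 4.56-fold, and the fall to P5 was -2.51 (SE 0.28, adjusted p = 0.0002), or 5.69-fold, which placed Fasn in rank 27 of the 16695 genes by size of change between E18 and P5. From P5 to P56 it rose by 3.56 (SE 0.28, adjusted p = 1.6e-06), or 11.8-fold, to a level 1.05 above E18 (SE 0.25, adjusted p = 0.003). The second Fasn probe, much dimmer, gave 1.40, -1.39 and 2.85 over the 3 steps, the same directions at smaller size.

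Thrsp, or Spot 14, a nuclear protein that responds to thyroid hormone and carbohydrate and promotes lipogenesis, read -3.33, -3.59 and -3.65 at E14, -2.99, -2.71 and -2.61 at E18, -3.40 and -2.85 at P5, and 3.32, 3.38 and 3.09 at P56. Its probe, printed above, had a raw Cy5 intensity between 269 and 550 on the 8 arrays up to P5 and of 36335.3, 21879.9 and 30358.1 on the P56 arrays, while the Cy3 intensity of the adult reference stayed between 2724.5 and 5147.3 throughout. The adult arrays stood apart from all others, and the 3 earlier stages lay close together. Thrsp rose by 6.39 (SE 0.18, adjusted p = 4.7e-10), or 84.1-fold, from P5 to P56 and by 6.79, or 111-fold, from E14, the first of these being the change of rank 9 among all tested genes. It rose by 0.75 (SE 0.16, adjusted p = 0.0019) from E14 to E18. The difference between P5 and E18, -0.36 (95% interval -0.74 to 0.03, adjusted p = 0.20), did not pass.

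Elovl6, the elongase that extends palmitate to stearate, read -0.61, -0.77 and -0.65 at E14, 1.35, 1.66 and 1.83 at E18, -1.04 and -0.77 at P5, and 3.45, 3.73 and 2.74 at P56. Its profile was that of Fasn, with both P5 arrays just below the E14 arrays. It rose by 2.29 (SE 0.21, adjusted p = 4.1e-06), fell by 2.52 (SE 0.24, adjusted p = 6.3e-05) and rose by 4.21 (SE 0.24, adjusted p = 1.1e-07), which are folds of 4.89, 5.72 and 18.5. The fall had rank 26 of all genes between E18 and P5.

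Elovl5, an elongase of polyunsaturated fatty acids, differed from these. It read -2.98, -3.15 and -3.16 at E14, -2.21, -2.02 and -1.78 at E18, -1.32 and -1.52 at P5, and -0.18, 0.24 and -0.61 at P56, so that each stage lay above the one before it with no overlap. Elovl5 rose by 1.10 (SE 0.18, adjusted p = 0.00044) from E14 to E18 and by 1.23 (SE 0.21, adjusted p = 0.00048) from P5 to P56. The step between E18 and P5 was 0.58 (95% interval 0.13 to 1.03, adjusted p = 0.083), which did not pass, and 22.5% of all genes were higher at P5 with no overlap. Its second probe gave 0.89 (SE 0.10), 0.53 (SE 0.12) and 0.75 (SE 0.12) over the 3 steps. With the mean of all Elovl5 probes the step from E18 to P5 passed, as given in the last section, so that call depends on the probe rule.

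Scd1, the main stearoyl-CoA desaturase of adult liver, read -3.27, -3.19 and -3.22 at E14, -1.41, -1.52 and -1.23 at E18, -3.27 and -2.84 at P5, and 1.39, 1.02 and 0.16 at P56. One P5 array was at the level of E14 and the other a little above, both far below E18. Scd1 rose by 1.84 (SE 0.24, adjusted p = 7.1e-05), fell by 1.67 (SE 0.27, adjusted p = 0.0022) and rose by 3.92 (SE 0.27, adjusted p = 5.7e-07), or 15.1-fold. Its paralog Scd2, which is known from embryonic and newborn liver and from brain, is no member of the set but shows the contrast. Scd2 read 3.73, 3.68 and 3.75 at E14, 5.65, 5.47 and 5.45 at E18, 1.38 and 0.55 at P5, and -1.31, -0.88 and -1.20 at P56. Both desaturases rose from E14 to E18 and fell to P5, Scd2 by 4.56 (SE 0.20, adjusted p = 2.8e-07) or 23.6-fold. After P5 they parted, for Scd2 fell a further 2.09 (SE 0.20, adjusted p = 8.2e-06) while Scd1 rose. Between E18 and P56 Scd1 rose 4.73-fold, while Scd2 fell 101-fold by its measured means. Scd2 was well above background on 2 of the 3 P56 arrays, so its level at P56, and the size of both falls to it, rests partly on a spot near background.

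Srebf1 encodes SREBP-1, the transcription factor that drives Fasn, Acaca, Elovl6 and Scd1 in response to insulin. The array annotation does not assign its probe to the 1a or the 1c form. It read -1.86, -1.93 and -1.75 at E14, 0.27, 0.02 and 0.14 at E18, -1.38 and -1.53 at P5, and 0.29, -1.21 and -0.76 at P56. Srebf1 rose by 1.99 (SE 0.28, adjusted p = 0.00011) from E14 to E18 and fell by 1.60 (SE 0.31, adjusted p = 0.0061) to P5. At P56 its arrays were spread over 1.50 on the log2 scale, with replicate 1 about level with the highest E18 array and replicate 2 near P5. The rise from P5 to P56, 0.90 (SE 0.31, adjusted p = 0.033), did not pass without P5 replicate 2 (adjusted p = 0.093) or replicate 3 (adjusted p = 0.11). The fall from E18 to P56, -0.71 (SE 0.28, adjusted p = 0.041), had overlapping arrays and was lost without any one of the E18 arrays (adjusted p = 0.062 to 0.11), without P56 replicate 2 (-0.38, adjusted p = 0.17) and without P56 replicate 3 (adjusted p = 0.13). It was also lost with the Cy5 channel alone (-0.45, adjusted p = 0.14), without the filter on dim probes (adjusted p = 0.067) and with the scanner's processed signals (adjusted p = 0.087). The mean of Srebf1 was highest at E18, though its highest single array was P56 replicate 1, and the means of Fasn, Elovl6, Scd1, Me1 and Thrsp were highest at P56.

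**Figure D2:**
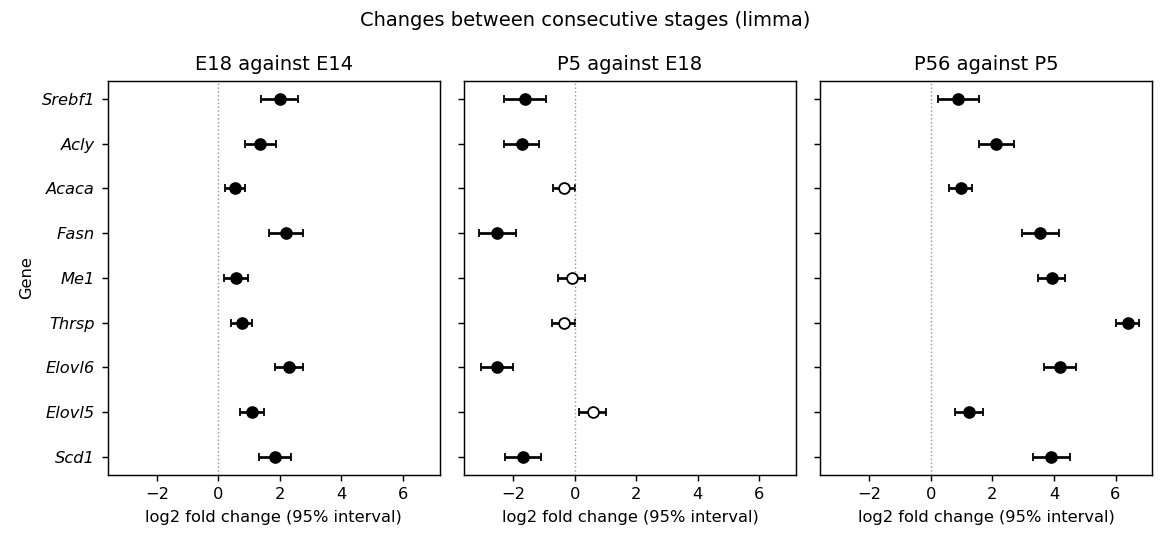
Log2 fold change of each gene (horizontal axis) with its 95% interval from limma in the 3 steps between consecutive stages. Filled points passed an adjusted p of 0.05 and open points did not. All points lie right of 0 in the first and last step, and 5 genes lie left of 0 with filled points in the step from E18 to P5.

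The P56 livers also differed from the adult reference RNA hybridised on the same arrays. Elovl6 averaged 3.31 ± 0.51 (SD, n = 3) above the reference, or 9.89-fold, Thrsp 3.27 ± 0.16 (9.62-fold) and Me1 2.50 ± 0.15 (5.65-fold). Fasn stood at 1.45 ± 0.66, Acly at 1.38 ± 0.59, Scd1 at 0.86 ± 0.63 and Acaca at 0.45 ± 0.32, above 0 on all 3 arrays, while Elovl5 (-0.19 ± 0.43) and Srebf1 (-0.56 ± 0.77) were above 0 on 1 of 3. By mean level at P56, 0.04% of all tested genes stood higher than Elovl6, 0.04% higher than Thrsp and 0.22% higher than Me1. The shares were 2.45% for Fasn, 2.89% for Acly, 7.47% for Scd1, 15.4% for Acaca, 66.9% for Elovl5 and 85.3% for Srebf1. Dyes were not swapped, so a bias of a probe toward one dye is part of these levels and shares. Such a bias cancels in the comparisons between stages. The donors and feeding state of the reference are not given in the labels. The 3 adult livers were not alike either: for Fasn, Acly, Scd1 and Acaca replicate 1 was highest and replicate 3 lowest, over a range of 1.33 for Fasn.

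Genes with the pattern of Fasn were ranked by Pearson's r over the 11 arrays, which fall into 4 stages and share a reference, so r mostly compares stage means. Among members r was 0.987 for Acly, 0.980 for Elovl6, 0.959 for Scd1, 0.921 for Acaca, 0.790 for Thrsp, 0.785 for Me1, 0.772 for Srebf1 and 0.695 for Elovl5. Acly, Elovl6 and Scd1 held ranks 1, 2 and 3 of all genes. The next were Acss2 (0.953), the cytosolic acetyl-CoA synthetase, Insig1 (0.950), the sterol-regulated protein that holds SREBP in the endoplasmic reticulum, Hsd17b12 (0.947), a reductase of fatty acid elongation, Tm7sf2 (0.944), a sterol reductase, and Ttf1 (0.942), a factor of ribosomal DNA transcription. Insig1 averaged -2.05 ± 0.17 at E14, 0.31 ± 0.17 at E18, -1.61 ± 0.42 (n = 2) at P5 and 0.98 ± 0.06 at P56. The pattern of Ttf1 was alike in shape but small, with means from -0.13 at P5 to 0.34 at P56. Thrsp was most like Me1 within the set (r = 0.997), and least like Srebf1 (0.305).

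**Figure D3:**
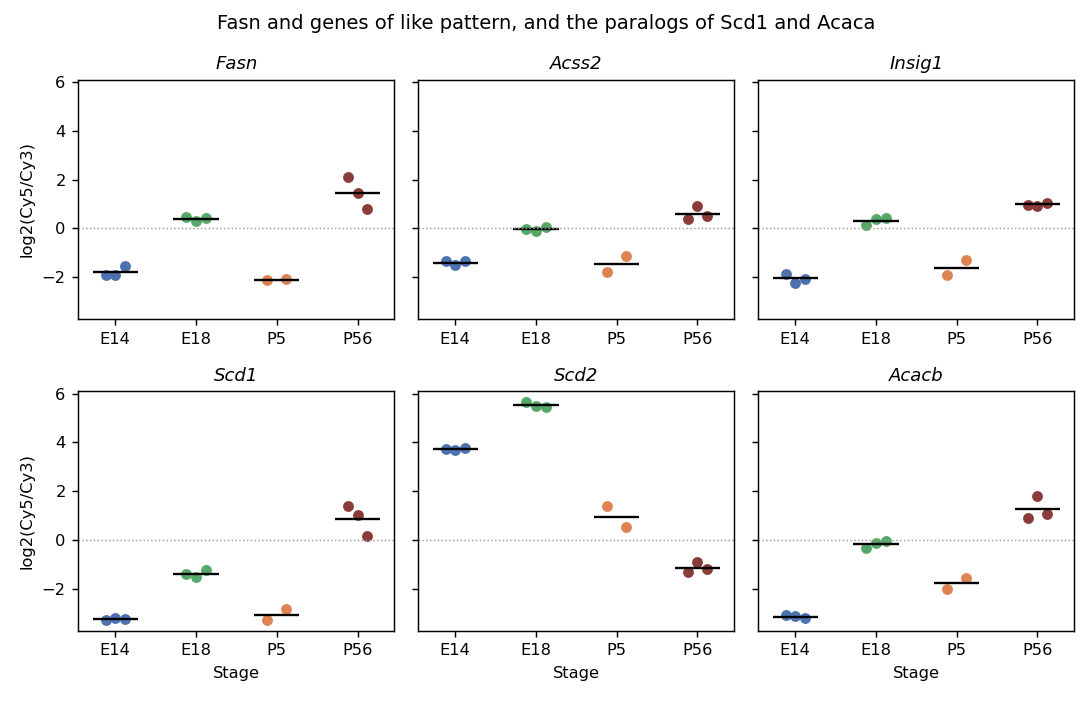
Level on each array as log2(Cy5/Cy3) (vertical axis) by stage (horizontal axis) for Fasn, 2 genes of like pattern (Acss2, Insig1), and Scd1 with Scd2 and Acacb. Points are arrays and bars are stage means. Scd2 is the exception, highest at E18 (mean 5.53) and lowest at P56 (mean -1.13).

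Other lipid genes were read from lists of known function. Of 21 further genes of synthesis, elongation and desaturation, 15 rose and 1 fell from E14 to E18, 2 rose and 9 fell to P5, and 9 rose and 6 fell to P56. Over all tested genes 24.6% were called higher and 22.8% lower to E18, 7.32% and 6.4% to P5, and 20.9% and 24.7% to P56. The same shares stand beside the counts of every list below for these steps. Acacb, the carboxylase of the mitochondrial surface that restrains fatty acid oxidation, moved with Fasn, falling by 1.61 (SE 0.23, adjusted p = 0.00086) to P5 and rising by 3.03 (SE 0.23, adjusted p = 1.0e-06) to P56. The largest rises to E18 were those of Acsl1 (4.29), which activates fatty acids, and Elovl2 (3.06), and Mcat, the mitochondrial malonyl transferase, fell by 0.31. To P5, Mcat (0.60) and Acsl4 (0.61) rose. Between P5 and P56, Elovl3 rose by 2.13, with an SD of 1.31 over the P56 arrays, and Acsl1 fell by 1.52. Elovl7 was lower at P56 than at E18 (adjusted p = 7.1e-07) and was not well above background on any P56 array. Elovl1 fell by 0.99 from E14 to P56.

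Supply of carbon and NADPH was measured by 22 genes, of which 11 rose and 2 fell to E18, 2 rose and 6 fell to P5, and 11 rose and 4 fell to P56. Khk, the fructokinase, rose by 3.65 (SE 0.18, adjusted p = 3.9e-08) from P5 to P56, the stage of the largest rises of Me1 and Thrsp. G6pdx, the first enzyme of the pentose phosphate pathway and another source of NADPH, went the other way and fell by 1.36 (SE 0.27, adjusted p = 0.0016), with Taldo1 (-0.88) of the same pathway. From E18 to P5, Acss2 fell by 1.44 and Tkt, the transketolase, by 1.20, while Mpc2, a subunit of the pyruvate carrier, rose by 1.06 and Gckr, a regulatory protein of sugar metabolism, by 0.92. Slc2a2, the glucose transporter of hepatocytes, rose by 2.81 from E14 to E18, while Pdha1 (-0.54) and Pklr (-0.51), a pyruvate dehydrogenase subunit and the liver pyruvate kinase, fell.

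Among 25 regulators of lipogenic transcription, 10 rose and 3 fell to E18, 6 rose and 3 fell to P5, and 8 rose and 8 fell to P56. In the same steps 24.6% of all tested genes were called higher and 22.8% lower, then 7.32% and 6.4%, then 20.9% and 24.7%. Insig1 (-1.93) and Insig2 (1.46) moved in opposite directions from E18 to P5, and Insig1 rose by 2.60 (SE 0.17, adjusted p = 3.5e-07) to P56. The CCAAT-binding subunits Nfya (-0.83) and Nfyb (-0.86) fell between P5 and P56, though Nfya was well above background on 1 of the 3 P56 arrays only. Nr0b2, a corepressor of nuclear receptors, rose by 1.07 from E18 to P5, Prkaa2, a catalytic subunit of AMP kinase, by 1.14 from P5 to P56, and Rxra, the partner of the liver X receptors, by 1.42 from E14 to E18, a step in which Nfyc (-0.56) and Mlx (-0.55), the partner of ChREBP, fell. Thra, a thyroid hormone receptor, fell by 1.04 from E18 to P56. For their known control of the members, and with values already seen, Mlxipl (ChREBP), Nr1h3 (liver X receptor alpha) and Srebf2 (SREBP-2) were also read. Mlxipl rose by 1.08 (SE 0.14, adjusted p = 8.3e-05) and Nr1h3 by 1.01 (SE 0.12, adjusted p = 5.1e-05) from P5 to P56, and Srebf2 fell by 0.34 (SE 0.12, adjusted p = 0.032).

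Cholesterol synthesis and uptake, under SREBP-2 in textbook accounts, went through the same steps: 20 of 22 genes rose and 1 (Mvk) fell to E18, 19 fell and none rose to P5, and 21 rose and none fell to P56. Fdps fell by 2.98 (SE 0.11, adjusted p = 1.6e-07) and Lss by 2.60 from E18 to P5, and Idi1 rose by 3.12 to P56. Sc5d (2.36) and Hmgcs1 (2.21) led the rise to E18. From E18 to P56, 9 were higher, among them Idi1 and Msmo1, and 5 lower, among them Lss (-1.85). Over all tested genes 31.2% were called higher and 33.6% lower in this comparison.

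Fatty acid oxidation and ketogenesis ran opposite to the members after birth. Of 22 genes, 21 rose to E18, then 16 rose and none fell to P5, and 16 fell and none rose to P56. Cyp4a14, an omega-hydroxylase that answers to PPAR-alpha, rose by 4.86 to E18 and by a further 4.24 (SE 0.36, adjusted p = 3.1e-05), or 18.9-fold, to P5, and fell by 3.68 to P56. Cyp4a10 rose by 2.38 to P5, and Bdh1, which makes 3-hydroxybutyrate, fell by 1.65 from P5 to P56. From E18 to P56, 7 were higher, among them Fgf21 (1.48), and 7 lower, among them Acadm (-1.32) and Hadhb (-1.26). These counts were near the shares over all tested genes, 31.2% called higher and 33.6% lower.

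Of 23 triglyceride assembly and droplet genes 15 rose and 1 fell to E18, with 3 rises and 3 falls to P5, and 10 rises and 2 falls to P56. Shares of all tested genes, in the same order, were 24.6% higher and 22.8% lower, 7.32% and 6.4%, and 20.9% and 24.7%. Lpin1, a phosphatidate phosphatase, moved in the same directions as Fasn, with 3.78, -2.24 (SE 0.26, adjusted p = 0.00023) and 1.92 over the 3 steps. Unlike that of Fasn, its mean was highest at E18 (2.02, against 1.70 at P56) and lowest at E14 (-1.76, against -0.22 at P5). Cidec (2.07), a droplet protein well above background on no E14 array and on 2 of 3 arrays at E18 and at P56, and Mgll (1.33), the monoglyceride lipase, rose from E18 to P5, and Cidec (-1.35) and Plin2 (-1.12), both droplet proteins, fell to P56. Cidec passed the filter only through P5, the stage where its mean was highest, so its entry to the test depended on that stage. Dgat2, which completes triglyceride, rose by 1.83 from P5 to P56, and Plin5 by 3.35 from E14 to E18. The lists share no rule with the members' values, but they were chosen with results of these arrays known.

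**Figure D4:**
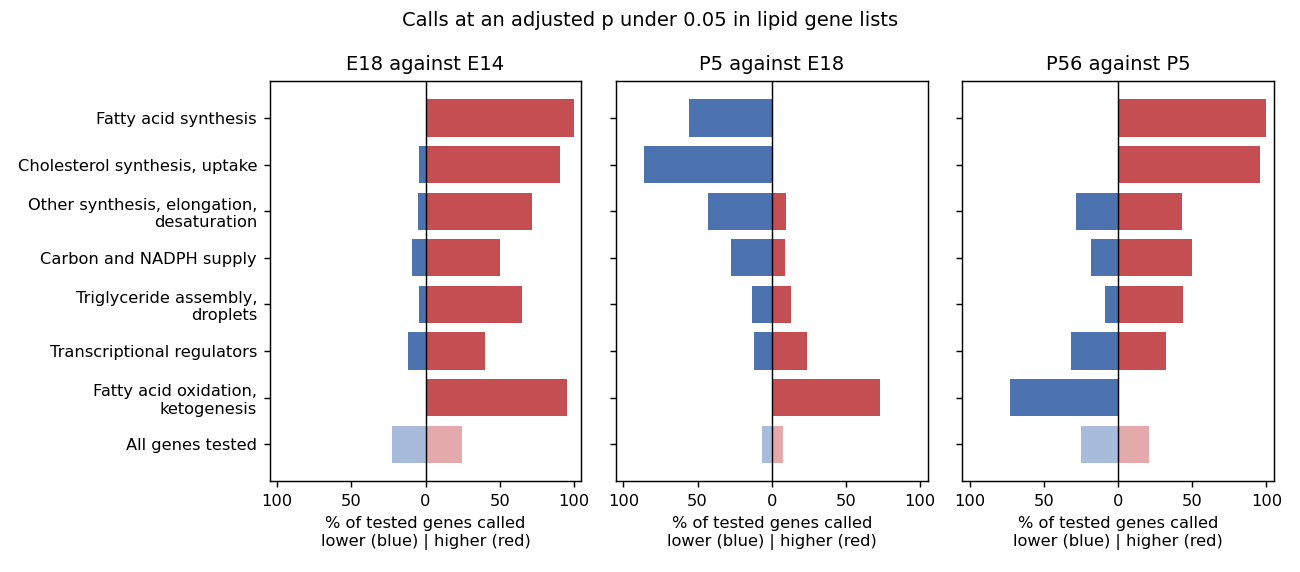
Share of tested genes in each list called higher (red, to the right) or lower (blue, to the left) at an adjusted p of 0.05, in percent on the horizontal axis, for the 3 steps between stages. The pale bars give the share among all genes tested. At P5 the fatty acid synthesis and cholesterol lists lie on the lower side and the oxidation list on the higher side, and at P56 these sides are exchanged.

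Markers of cell types moved over the same steps. For comparison, 24.6% of all tested genes were called higher and 22.8% lower to E18, 7.32% and 6.4% to P5, and 20.9% and 24.7% to P56. The erythroid counts to E18 were near the shares of that step. From E14 to E18 all 9 hepatocyte markers rose, with a median of 3.36 on the log2 scale, as did all 8 macrophage markers (median 1.45), while of 11 erythroid markers 3 rose and 2 fell (median -0.02); the part of the hepatocyte share of the RNA in the members' first rise was not tested. From E18 to P5 no hepatocyte marker rose and 3 of 9 fell (median -0.31), 2 of 11 erythroid markers fell, and 2 of 8 macrophage markers rose. From P5 to P56 10 of 11 erythroid markers fell (median -2.83), among 8 macrophage markers 4 fell, and of the 9 hepatocyte markers 2 rose and 5 fell (median -0.65). The part of these shifts in the members' second rise was not tested. The erythroid markers Hbb-bh1, Epb42, Gata1 and Ermap were not above background on any P56 array. Of the fat cell markers Adipoq, Lep, Plin1 and Retn were not well above background on any of the 11 arrays, and Cfd was on 1 P56 array. The 3 others, Fabp4, Lpl and Slc2a4, had a mean log2(Cy5/Cy3) of 0.18 at E14, 2.14 at E18, 2.18 at P5 and -0.16 at P56, and 2 of them rose from E14 to E18. Of 8 endothelial markers 5 rose to E18 and 6 fell to P56, of 7 stellate and fibroblast markers 6 fell to P56, and of 5 biliary markers 3 rose to E18 and 2 fell to P56; the part of these cells in the members' changes was not tested.

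The arrays were read in 4 scans, and no scan holds both E18 and P5 arrays, or P56 with either embryonic stage, so scan and stage cannot be told apart in the fall to P5 or in the comparisons of P56 with E14 and E18. For the other steps a scan holds both stages. Within scan 1, E18 replicate 1 minus the mean of the 3 E14 arrays was positive for all 9 genes, from 0.52 (Acaca) to 2.25 (Fasn). Within scan 4, the mean of the 3 P56 arrays minus P5 replicate 3 was positive for all 9, from 0.77 (Acaca) to 6.12 (Thrsp). How often genes outside the set were positive within a scan was not counted, and each difference rests on 1 E18 or 1 P5 array.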

How the data were processed

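The 2-colour arrays were scanned and read by the authors with Agilent Feature Extraction 9.5.1.1, and the deposited spot files give mean Cy5 and Cy3 intensity, local background and marks for outlier or dim spots, with probe positions on mm7. A deposited table holds the authors' normalized log2 ratios per gene (limma is named in the submitters' processing notes, without a version) and served as an alternative. Its direction, Cy5 over Cy3, follows from its correlation with each array's own ratios (r = 0.815 to 0.931). Its centring and probe averaging are not given in the sources used here, and its columns' medians lay between -0.06 and 0.05. For E14 replicate 1 and P5 replicate 3 another replicate of the stage correlated best.

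From the intensities, background was corrected by normexp (offset 50) and each array's ratios were normalized by loess in limma 3.58.1 (R 4.3.3). Control spots had weight 0, and outlier spots were left out (177 to 356 per array). Probes were kept if some stage had them well above background in the Cy5 channel of its every array, with at most 1 array missing per stage. The probe of highest mean brightness stood for a gene; 265 tested genes lacked a value on some array, no member among them. One linear model with the 4 stages was fitted to 11 arrays (lmFit, eBayes), with Benjamini-Hochberg adjustment over 16695 genes. Replicates are separate biological replicates by the labels; the P5 arrays are numbered 2 and 3 in their titles. Precision is limited by the number of arrays.

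Accessions of 11725 tested genes were in RefSeq, 2655 of them under another symbol now. Genes outside the set were named by rule: per list and comparison the 2 largest rises and 2 largest falls past the threshold with no overlap, and the 5 highest r to Fasn; some genes that this rule names are not reported here. The members and lists were chosen with earlier results of these data known. Alternatives changed the background correction, normalization, filter, probe rule, model and blocks, and left out each array. The model step was tested on simulated data. Promoter windows and probe sequences were searched and copied in Python.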

Additional observations from a re-analysis of the deposited data

How the results depend on the processing

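Counts of members called stayed within 1.5 times in 84 cases that kept all arrays and moved further in 3. All 3 were by the methods' t-test after Benjamini-Hochberg adjustment, with 1 of 9 from E18 to P5, 1 from P5 to P56 and 5 from E18 to P56. The unadjusted threshold gave 6, 8 and 6. The t-test does not share its spread over genes, and for the steps to and from P5 it has only 2 P5 arrays. Leaving out 1 array gave 8 to 9 (E18 against E14), 5 to 5 (P5 against E18), 8 to 9 (P56 against P5), 7 to 8 (P56 against E18) and 9 to 9 (P56 against E14). Single members changed direction from E18 to P56 with each array centred on its median (Acaca -0.089, Acly -0.50) and in the authors' table (Acly -0.10), and from E18 to P5 without P5 replicate 2 (Me1 0.32, and -0.52 without P5 replicate 3); none of these passed the test. Centring on the median moved the median of all genes to -0.47 from P5 to P56, -0.42 from E18 to P56 and -0.33 from E14 to P56, and the share of calls that were higher from 45.7%, 48.1% and 51% to 6.84%, 14.9% and 22.9%. Under it the members' median rise from P5 to P56 was 3.16, but Acaca (0.31, adjusted p = 0.21) and Srebf1 (0.29, adjusted p = 0.60) no longer passed, nor did Me1 to E18, Srebf1 to P5 (adjusted p = 0.072) and Srebf1 from E14 to P56 (adjusted p = 0.13). In the authors' table, Acly passed in no comparison and Acaca not to E18; the cause was not tested. With scan as a fixed block, which could be fitted for 2 steps, Acaca to E18 (adjusted p = 0.080) and Srebf1 to P56 (adjusted p = 0.12) were lost. Elovl5 rose from E18 to P5 with the mean of all probes (adjusted p = 0.033) or median centring (adjusted p = 0.041), and Acaca fell without background correction (adjusted p = 0.026) or with the scanner's processed signals (adjusted p = 0.033). Thrsp to E18 was lost with Cy5 alone (0.31, adjusted p = 0.11). Same-numbered arrays did not deviate together (r = -0.31 to 0.08). With so few arrays per stage, this cannot show whether same-numbered arrays share anything beyond the number. The fit with the replicate block called 9, 5, 8, 8 and 9 members in the 5 comparisons, Srebf1 from P5 to P56 (0.74, adjusted p = 0.060) being the 1 call lost. Over all genes, calls from E18 to P5 numbered 2291, but 3765 without P5 replicate 2, 929 without P5 replicate 3, 1269 without E18 replicate 3, 1388 without E18 replicate 2, 1475 with median centring, 1484 with array weights, 830 in the authors' table and 61 by the t-test. From P5 to P56 they numbered 7614, and 4743 without P5 replicate 2, 4673 with scan as a block, 4995 with only these stages and 298 by the t-test.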
